A study of Mus musculus with 6 samples.

Results

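The regions described here carried an Arid3a peak in all 6 libraries of the series and lay more than 100 kb from the body of any protein-coding gene, and are called shared desert regions. Peaks of the 6 lists were merged where they overlapped by at least 1 bp, which gave 79295 union regions. Of these, 29602 had a peak in every library and are called shared regions. Of the shared regions, 2125 (7.18%) lay over 100 kb from every protein-coding gene of mm10. Peak presence and distance chose them, so neither property is a finding. Their median distance from the nearest protein-coding gene was 188 kb, with quartiles of 136 and 292 kb and a maximum of 2042 kb.

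Gene deserts are long stretches between protein-coding genes. Many hold enhancers, short stretches that bind transcription factors and act on a distant promoter by looping, and deserts beside regulators of development are known for such elements. Arid3a binds DNA through an ARID, a domain named for its interaction with AT-rich sequence. CUT&Tag maps a chromatin protein by tethering a transposase to it with antibodies, so that the DNA around it is cut and tagged for sequencing.

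All libraries came from primary mouse vascular smooth muscle cells (VSMCs), bought as isolated cells, with an antibody against Arid3a and 10000 cells per assay. In 3 libraries the cells carried an siRNA against Arid3a, numbered 1, 2 and 3 (siRNA-labelled), and in the other 3 a Negative Control treatment (NC-labelled). The protocol gives 24 h of transfection and describes a model of abdominal aortic aneurysm with 36 h of angiotensin II (Ang II). The labels do not state the Ang II exposure of a library, the strain or age of the mice, or whether libraries came from separate cultures. A p-value between the groups thus covers just the spread among these 6 libraries, and part or all of that spread may be technical. An siRNA lowers a transcript without deleting the gene, and the amount of Arid3a left was not analysed here.

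In 6 of 6 lists the names given to the peaks are those of the opposite group (a siRNA-labelled list holds NC names and the reverse, number for number). Groups follow the sample labels here, and each direction between groups reverses if the names in the lists are the true ones. Lists held 43834 to 51682 peaks. Total reads were not used, so the background fragments per base of each list, solved from the deposited columns, stand in for depth. This background coverage was 0.475, 0.482 and 0.538 in siRNA-labelled libraries 1 to 3, against 0.670, 0.673 and 0.621 in NC-labelled libraries 1 to 3. Group and coverage cannot be told apart. Of the smooth muscle markers 7 of 8 had a shared region in or within 1000 bp of the gene (Acta2, Tagln, Myh11, Smtn, Lmod1, Myl9 and Tpm2, not Cnn1), as did 3 of 6 endothelial markers (Pecam1, Cdh5 and Vwf) and 1 of 6 leukocyte markers (Cd68). A library made with no Arid3a antibody was not analysed here, so the regions are places where the antibody gave a peak and are not shown to be bound by Arid3a.

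The sequences that could be read lie where a shared desert region covered an annotated start of a non-coding gene. Windows of 300 bases around annotated gene starts, 250 bases before to 50 after, were taken from RefSeq (GRCm38.p6, the assembly of mm10). A gene can have several starts, some of them inside it, as at the Gm35551 window printed here (gene at chr17:84019785-84083608). A shared desert region touched 47 such windows, and 27 windows of 26 genes lay wholly inside a region. The 4 printed are the pair with the highest-ranked regions, Gm35551 and 4930471E19Rik, then Morrbid, an lncRNA named for its part in myeloid cell survival, and Gm8883, which lies in the desert on one side of the fibronectin gene Fn1. Capitals mark matches on either strand to TGANTCA (AP-1, the Fos and Jun dimer, N for any base), GGAATG (TEAD, the factors that partner Yap) or CCGGAAG (ETS). Each of the 4 holds a match, but they do not stand for all 27. The window next in rank inside a region, that of Gm13470, and that of Mir100hg hold no match and are not printed.
Gm35551, chr17:84044537-84044836, minus strand: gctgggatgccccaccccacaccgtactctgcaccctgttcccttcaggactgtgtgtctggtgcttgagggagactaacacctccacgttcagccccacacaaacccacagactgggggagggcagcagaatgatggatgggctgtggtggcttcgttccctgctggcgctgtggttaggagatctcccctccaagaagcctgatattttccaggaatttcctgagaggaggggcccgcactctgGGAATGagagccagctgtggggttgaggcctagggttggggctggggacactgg
4930471E19Rik, chr10:120636058-120636357, minus strand: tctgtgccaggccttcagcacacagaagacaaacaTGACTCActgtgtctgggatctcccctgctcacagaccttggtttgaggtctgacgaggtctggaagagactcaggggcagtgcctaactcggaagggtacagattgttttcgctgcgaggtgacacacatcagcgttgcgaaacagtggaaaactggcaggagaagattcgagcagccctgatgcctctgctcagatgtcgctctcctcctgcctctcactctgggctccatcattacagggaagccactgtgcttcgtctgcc
Morrbid, chr2:128429302-128429601, minus strand: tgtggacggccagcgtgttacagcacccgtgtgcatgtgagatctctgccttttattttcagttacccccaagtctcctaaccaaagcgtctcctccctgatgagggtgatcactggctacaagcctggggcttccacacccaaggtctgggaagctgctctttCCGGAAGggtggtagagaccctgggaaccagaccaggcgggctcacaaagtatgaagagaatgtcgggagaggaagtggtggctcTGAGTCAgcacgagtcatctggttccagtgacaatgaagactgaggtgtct
Gm8883, chr1:71887862-71888161, plus strand: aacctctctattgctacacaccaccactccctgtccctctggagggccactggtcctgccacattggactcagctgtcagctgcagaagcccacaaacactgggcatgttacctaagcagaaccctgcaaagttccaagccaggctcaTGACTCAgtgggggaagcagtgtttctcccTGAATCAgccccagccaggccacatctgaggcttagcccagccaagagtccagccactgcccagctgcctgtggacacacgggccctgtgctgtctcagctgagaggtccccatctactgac

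The AP-1 letters TGANTCA stood in 9 of the 27 windows inside a shared desert region (33.3%). Over all 32851 windows the share was 7.81%, and over the 11588 windows of non-coding genes it was 9.31%. Gm8883 held these letters at 2 places, as TGACTCA and as TGAATCA. The AP-1 shares count any middle base and were not split by it. TEAD letters were found in 6 of 27 windows (22.2%), against 14.7% of all windows and 16.6% of non-coding ones. ETS letters were in 2 of 27 (7.41%), against 8.86% and 3.89%. The AT-rich letters ATTAAA, an ARID3A-type core, were in 1 of 27 (3.70%), against 13.9% and 17.9%. The median GC content was 53.7% in the 27 windows and 48.3% in windows of non-coding genes, and its part in the motif counts was not tested. Windows inside the other shared regions were not counted, so none of these shares is shown to be particular to deserts. The motifs were chosen after the data were seen, a match is not a binding site, and the bulk of the desert regions has no sequence here.

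Behind these windows the regions ranged from strong to weak. The Gm35551 region (chr17:84044161-84045241, 139 kb from Zfp36l2) had fold enrichments at the summit of 12.1, 14.3 and 12.8 in siRNA-labelled libraries 1 to 3 and of 12.7, 11.98 and 13.2 in NC-labelled libraries 1 to 3. That of 4930471E19Rik (chr10:120635757-120636684, 144 kb from Msrb3) had 11.1, 10.9 and 11.01, against 9.43, 9.49 and 9.72. The groups overlapped at Gm35551 and did not at 4930471E19Rik, which did not pass the test of single regions below. At Morrbid (chr2:128427994-128429712) the fold was 5.55, 7.56 and 6.84, against 5.06, 5.67 and 5.53. At Gm8883 (chr1:71887758-71888435, 234 kb from Fn1) it was 6.64, 9.55 and 8.53, against 8.67, 9.10 and 9.17. All these values are the authors' own, the ratio of the fragments at the peak summit to the local background of the same library. In that ratio 1 is added to both terms, so a fold lies below the plain ratio, most where the background is low. Folds set between the groups come from different lists.

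MicroRNA hairpins gave a second set of sequences. Of 1005 RefSeq hairpins 104 lay in deserts, 8 of these lay within 2 kb of a shared desert region, and 4 overlapped one. All 4 that overlapped belong to the Mir344 group on chromosome 7. The mature sequences are grouped by seed (bases 2 to 8, capitals), and the first 3 share GUCAGGC, the next 2 GAUCUAG, and each of the others has its own.
miR-344-5p: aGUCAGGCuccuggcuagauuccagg
miR-344c-5p: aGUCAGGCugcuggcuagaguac
miR-344d-3-5p: aGUCAGGCuagugguuauacucc
miR-344-3p: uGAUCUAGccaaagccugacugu
miR-344c-3p: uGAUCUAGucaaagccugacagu
miR-344d-3p: gAUAUAACcacugccagacuga
miR-344d-2-5p: aGUCUGGUugcuggcuauauucca
miR-100-5p: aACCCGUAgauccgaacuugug
miR-125b-5p: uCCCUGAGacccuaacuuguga

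Folds differed among the Mir344 regions. The region over Mir344c (chr7:61837137-61837752) had folds of 9.92, 11.3 and 11.6 in the siRNA-labelled and 11.6, 7.35 and 8.64 in the NC-labelled libraries. The region over Mir344d-3 (chr7:61726126-61726511) had 9.35, 7.76 and 8.45, against 8.38, 9.92 and 9.18. The region over Mir344d-2 (chr7:61685056-61685551) had 4.74, 5.86 and 4.53, against 7.78, 7.09 and 5.45, and that over Mir344 (chr7:61877306-61877999) 4.55, 4.36 and 6.36, against 5.91, 7.05 and 6.80. The groups overlapped at all 4. The hairpins resemble each other in sequence, and the sources used here do not say how reads that fit several places were handled.

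The hairpins of miR-100 and miR-125b, which share the host transcript Mir100hg, each had a region nearby. The region 1224 bp from Mir100 (chr9:41532728-41533533) had folds of 10.0, 12.7 and 14.3 in the siRNA-labelled libraries, against 12.8, 12.7 and 8.93 in the NC-labelled libraries. The region 687 bp from Mir125b-1 (chr9:41580738-41581239) had 5.20, 6.25 and 4.92, against 6.81, 6.74 and 6.23. Both are among 8 shared desert regions inside Mir100hg (chr9:41376526-41615185). The window of an annotated start inside that gene (chr9:41474643-41474942, plus strand) also lies in one of the 8. It is not the outermost start of Mir100hg. Within Mir100hg the fold of a region in 1 library ran between 4.03 and 14.3.

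Shared desert regions were narrow and of moderate rank within their lists. The median of each region's median over the 6 libraries was 7.55 for the fold, 12.3 for the −log10 q-value and 522 bp for the peak width. From the 10th to the 90th percentile of the regions, the fold ran between 5.25 and 11.9, the −log10 q between 5.97 and 35.4, and the width between 347 and 818 bp. The merged regions had a median width of 720 bp (289 to 3538) and covered 1.64 Mb together. A peak above the 90th percentile of −log10 q in every list was found at 123 of them (5.79%), against 2959 of the 27477 other shared regions (10.8%). The summits of the 6 libraries lay within a median of 157 bp of each other (quartiles 95 and 242), close to the 155 bp of the other shared regions. The coefficient of variation of the fold over the 6 libraries had a median of 14.8%, against 13.3% for the others.

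Set against the other shared regions of the same library, desert regions had slightly higher fold, lower q-value rank and narrower peaks in every library. The median fold of desert regions was 7.09, 7.65 and 7.61 in siRNA-labelled libraries 1 to 3 and 7.65, 7.83 and 7.61 in NC-labelled libraries 1 to 3. For the other shared regions it was 6.92, 7.58 and 7.57, and 7.30, 7.56 and 7.33. The ratio of desert to other was 1.03 on average (1.01 to 1.05), above 1 in 6 of 6 libraries. The quartile ranges overlap almost wholly, so the difference is one of medians over many regions. The median percentile of −log10 q within a list was 6.18 points lower in deserts (5.39 to 7.12 points lower), and the peak width was 0.882 of the others' (0.869 to 0.887). In a two-sided exact permutation test that flips the sign of the 6 within-library differences, each of the 3 had p = 0.031, the smallest that 6 libraries allow. These and 3 more comparisons below make a family of 6, in which the Benjamini-Hochberg adjusted p (exact permutation) was also 0.031. Both sets were chosen by peak calls that rest on the same columns, and all 6 libraries score the same regions. These p-values thus cover only agreement among the libraries, and the part of the selection in the differences was not tested.

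**Figure D1:**
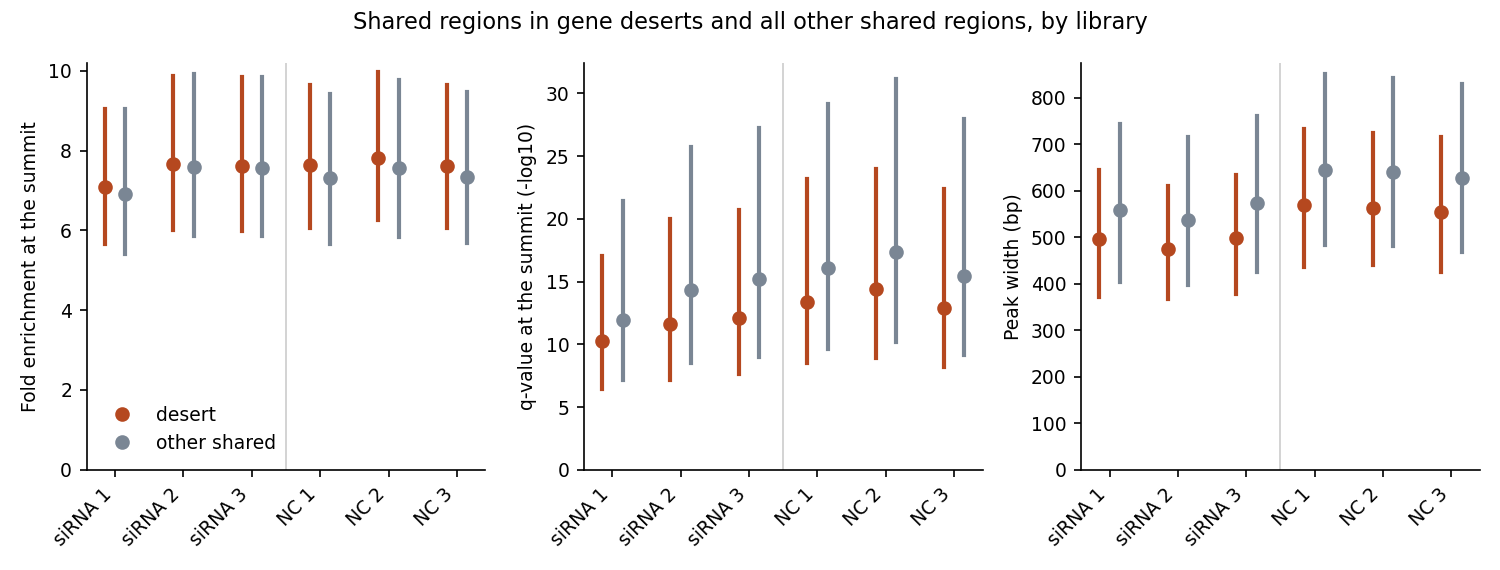
Fold enrichment, −log10 q and peak width (bp) of shared desert regions (left of each pair) and other shared regions, in siRNA-labelled and NC-labelled libraries. Points are medians over regions and bars the quartiles. Desert medians lie above the others for fold, between 7.09 and 7.83, and below them for −log10 q and width in every library.

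The other shared regions include promoters and gene bodies, so the same comparison was made against the 7692 other shared regions that lay over 1000 bp from any protein-coding gene. The fold ratio was then 1.06 (1.04 to 1.08), the percentile 2.52 points lower in deserts (1.76 to 3.36), and the width ratio 0.960 (0.949 to 0.967). Each again held in 6 of 6 libraries, with an exact permutation p of 0.031 that has the same limits. The fold difference was thus larger against intergenic regions, while the differences in q-value rank and width were smaller.

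The columns behind the fold moved apart with distance. The fold and the p-value of a peak together fix the number of fragments at the summit and the local background, and both were solved for 99.9% or more of the peaks of each list. In desert regions the median summit held 16, 17 and 18 fragments in siRNA-labelled libraries 1 to 3 and 22, 23 and 21 in NC-labelled libraries 1 to 3. At the other shared regions it held 22, 24 and 26, and 30, 31 and 28. The local background was 1.32, 1.297 and 1.45 fragments in deserts of the siRNA-labelled and 1.92, 1.88 and 1.77 in those of the NC-labelled libraries. At the other shared regions the local background was 2.19, 2.25 and 2.52, and 3.12, 3.15 and 2.90. Both were lower in deserts, the background by the larger proportion, in each of the 6 libraries. The 1 added to both terms of the fold weighs more on a lower background. Its part in the desert to other fold ratio was not tested. For regions over 500 kb from a gene, 159 in number, the median summit held only 13 to 18 fragments over a background of 0.917 to 1.36, yet the median fold was 7.20 to 8.41. Inside gene bodies the median summit held 23 to 33 fragments over 2.31 to 3.32, with a fold of 7.00 to 7.72.

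**Figure D2:**
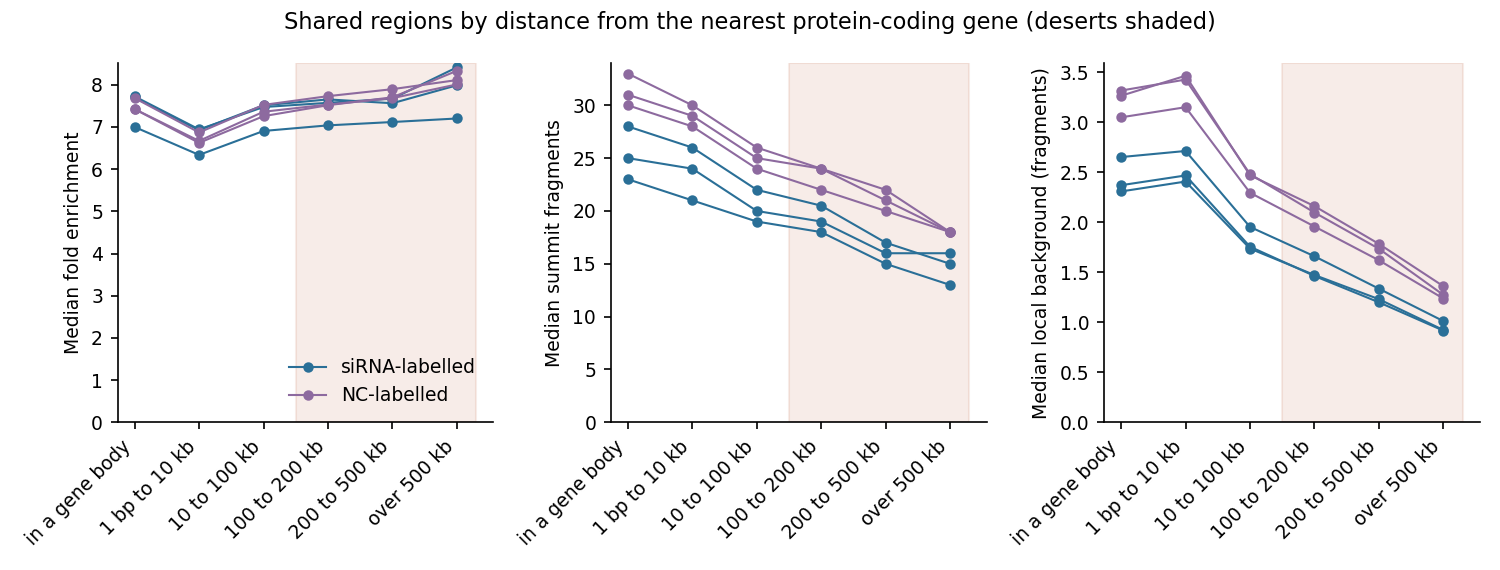
Median fold enrichment, summit fragments and local background (fragments) of shared regions in 6 classes of distance from the nearest protein-coding gene, 1 line per library. Fragments and background over 500 kb from a gene are lower than at 10 to 100 kb in every library (shading marks deserts), while the fold over 500 kb lies between 7.20 and 8.41.

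Presence in every library was then set against distance. Of the 6639 union regions over 100 kb from a gene, 32.0% had a peak in all 6 libraries (95% Wilson interval 30.9 to 33.1, counting error only), against 37.8% (37.5 to 38.2) of the 72656 other union regions. A peak in 1 library only was found at 31.8% of desert union regions and 30.0% of the others. By distance, the share with all 6 was 41.2% inside gene bodies, 29.5% up to 10 kb outside them, 33.0% at 10 to 100 kb, 32.9% at 100 to 200 kb, 31.5% at 200 to 500 kb and 28.8% beyond 500 kb. Each class over 100 kb lay below gene bodies, but the class up to 10 kb outside a gene also lay below those at 100 to 200 kb and 200 to 500 kb. Presence chose the regions, so no test was made. At 28 desert union regions (0.422%) every siRNA-labelled library and no NC-labelled library had a peak, and at 33 (0.497%) the reverse held. Of the other union regions 243 (0.334%) had a peak in the 3 siRNA-labelled libraries only and 449 (0.618%) in the 3 NC-labelled libraries only.

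The limit of 100 kb fell among regions of all strengths. Just inside it, the region at chr13:98534162-98534974, 100.003 kb from Tmem174, had folds between 7.66 and 9.70 over the 6 libraries. That at chr5:64701859-64702362, 100.007 kb from Gm38457, had 5.48 to 9.06, and that at chr11:31563863-31565023, 100.126 kb from Bod1, had 4.28 to 6.42. Just outside, regions lay 99.954 kb from Kdr, the main VEGF receptor (folds of 9.37 to 14.3), 99.954 kb from Galnt18 (6.98 to 9.49) and 99.857 kb from Zfp365 (9.15 to 12.8). At the other end, the farthest region from any protein-coding gene (chr14:82065102-82065781, 2042 kb from Olfm4) had folds of 6.10, 7.76 and 4.55 in the siRNA-labelled and 6.58, 5.69 and 6.17 in the NC-labelled libraries. Its summits held 6 to 11 fragments, so a difference of a few fragments sets its fold.

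Shared desert regions were rare and uneven in the deserts. Sequence over 100 kb from protein-coding genes made up 785 Mb (29.2% of the stretch between the first and last gene of the chromosomes), and held 2.71 shared regions per Mb, against 14.4 per Mb elsewhere. A desert is taken here as a gap of over 200 kb between neighbouring protein-coding genes, the least that can hold a member. Of 1689 such gaps, 1147 (67.9%) held no shared desert region. The widest empty one spans 4.51 Mb between Celf4 and Pik3c3 on chromosome 18. Another 51 gaps held 10 or more regions each, and together 34.6% of all shared desert regions in 4.73% of the desert sequence. Per chromosome the density lay between 5.55 per Mb on chromosome 13 and 0.757 on chromosome X, and chromosome Y had none in 47.3 Mb. How much of that sequence short reads can cover was not tested.

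The desert between Myc and Gsdmc on chromosome 15 held the most, 46 regions in a gap of 1.79 Mb. Myc encodes a transcription factor of growth and proliferation, and its flanks are known for enhancers that act in different tissues. Gsdmc is a gasdermin, a pore-forming protein. The lncRNA Pvt1, which starts beyond Myc, held 10 of the 46. Within a desert, regions are ranked here by their lowest −log10 q over the 6 libraries, and the highest-ranked pair lay past the end of Pvt1. The region at chr15:62328222-62329293, 338 kb from Myc, had folds of 15.8, 14.8 and 14.6 in siRNA-labelled libraries 1 to 3 and 12.9, 14.9 and 15.0 in NC-labelled libraries 1 to 3. The region at chr15:62286589-62287696, 296 kb from Myc, had 13.9, 17.8 and 16.7, against 14.3, 17.2 and 14.3. In both the groups overlapped. The next in rank lay 579 kb from Myc (chr15:62568901-62570019), with folds of 11.7 to 14.3. Rank and fold did not go together throughout, since regions 880 kb from Myc (chr15:62870730-62871755) and 886 kb from Gsdmc (chr15:62889899-62890319) were lower in rank but had folds of 13.7 to 16.6 and 12.6 to 19.2. Inside Pvt1 the folds of a region in 1 library ran between 3.85 and 12.5. On the other side of Myc, 3 more regions had Myc as their nearest gene, at 330 to 531 kb.

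**Figure D3:**
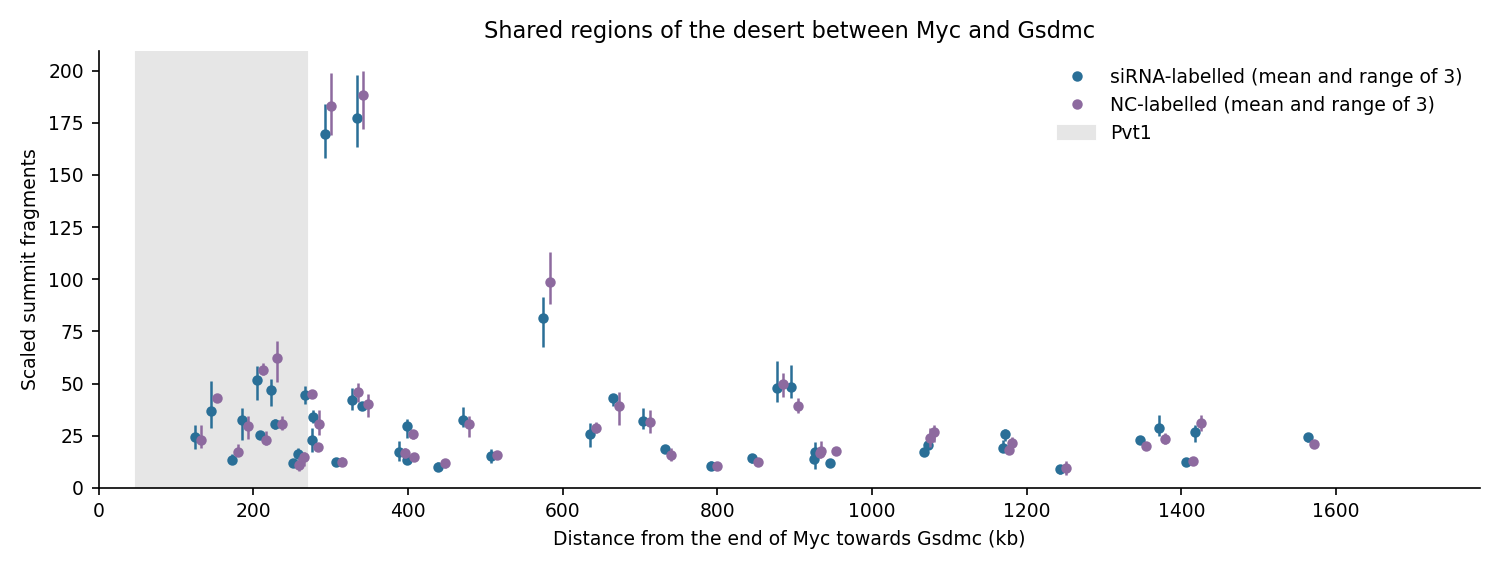
Summit fragments, scaled to an equal median over all shared regions in each library, of the 46 shared desert regions between Myc and Gsdmc against distance (kb) from the end of Myc. Points are means and bars the range of the 3 siRNA-labelled (drawn 4 kb to the left) and 3 NC-labelled libraries (4 kb to the right). The pair at 296 and 338 kb stands above all others, and the bars of the groups overlap at both.

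Next came the desert between Klf4 and Actl7b on chromosome 4, with 30 regions in 1.21 Mb. Klf4 is a zinc-finger transcription factor that represses contractile genes when smooth muscle cells change state, and Actl7b is an actin-like gene of the testis. The region nearest Klf4, 118 kb away (chr4:55650939-55651752), was also the highest-ranked of the desert, with folds of 17.3, 16.6 and 16.8 in the siRNA-labelled and 16.3, 16.4 and 16.2 in the NC-labelled libraries. All 3 siRNA-labelled folds lay above all 3 NC-labelled folds here, by little. The unscaled summit fragments at this region lay the other way, at 117, 108 and 121 in the siRNA-labelled and 142, 153 and 140 in the NC-labelled libraries. Scaled to an equal median over all shared regions, they were 146, 118 and 122, against 128, 133 and 131, and the groups overlapped. The region did not pass the test of scaled fragments below. The next in rank lay 579 kb from Actl7b (chr4:56160471-56161309, folds of 12.8 to 15.8).

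Other deserts with many shared regions flank genes of matrix, signalling and transcription. That of Rasgrp1 and Thbs1, the gene of the matrix glycoprotein thrombospondin-1, held 23 regions on chromosome 2, of which 7 lay in the lncRNA Gm13986. The highest-ranked (chr2:117882014-117882681, 229 kb from Thbs1) had folds of 9.66, 12.7 and 10.8, against 11.99, 13.4 and 12.8. The desert of Plpp3, a phosphatase of lipid mediators, and Usp24 held 22. That of Zeb2, an E-box repressor of epithelial genes, and Acvr2a, an activin receptor, held 21 in 3.70 Mb, 19 of them nearest to Zeb2. The highest-ranked of these lay 1325 kb from Zeb2, over Gm13470 (chr2:46442757-46444093), with folds of 11.3, 12.3 and 11.9, against 12.2, 10.99 and 11.6. A region 117 kb from Zeb2 (chr2:45234834-45235515) had higher folds, 15.5, 17.4 and 16.6, against 18.6, 20.2 and 16.1. The groups overlapped at each of these 3 regions.

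The desert of Runx1, a transcription factor of blood and mesenchymal lineages, and Setd4 on chromosome 16 held 20 regions. The highest-ranked (chr16:93238039-93239360, 344 kb from Setd4) had folds of 13.3, 16.7 and 15.5 in the siRNA-labelled and 13.9, 14.4 and 13.2 in the NC-labelled libraries. The desert of Serp2 and Lacc1 on chromosome 14 also held 20 and was the densest of the 12 fullest, with 75.6 shared regions per Mb of its desert sequence. All 20 formed 1 cluster of 253 kb. The desert of Cxcl12, the chemokine ligand of the receptor Cxcr4, and Zfp637 held 18, with the highest-ranked 256 kb from Cxcl12 (chr6:117437348-117438234, folds of 11.6 to 13.6). The remaining deserts of the 12 were those of Nmbr and Cited2 (19), Agtr1b and Tbl1xr1 (17), Marcks and Rfpl4b (17), and Mctp2 and Rgma (16). Agtr1b encodes a type 1 receptor of angiotensin II, but 16 of the 17 regions were nearer to Tbl1xr1, a subunit of nuclear corepressor complexes. The 12 deserts together held 269 regions (12.7%).

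**Figure D4:**
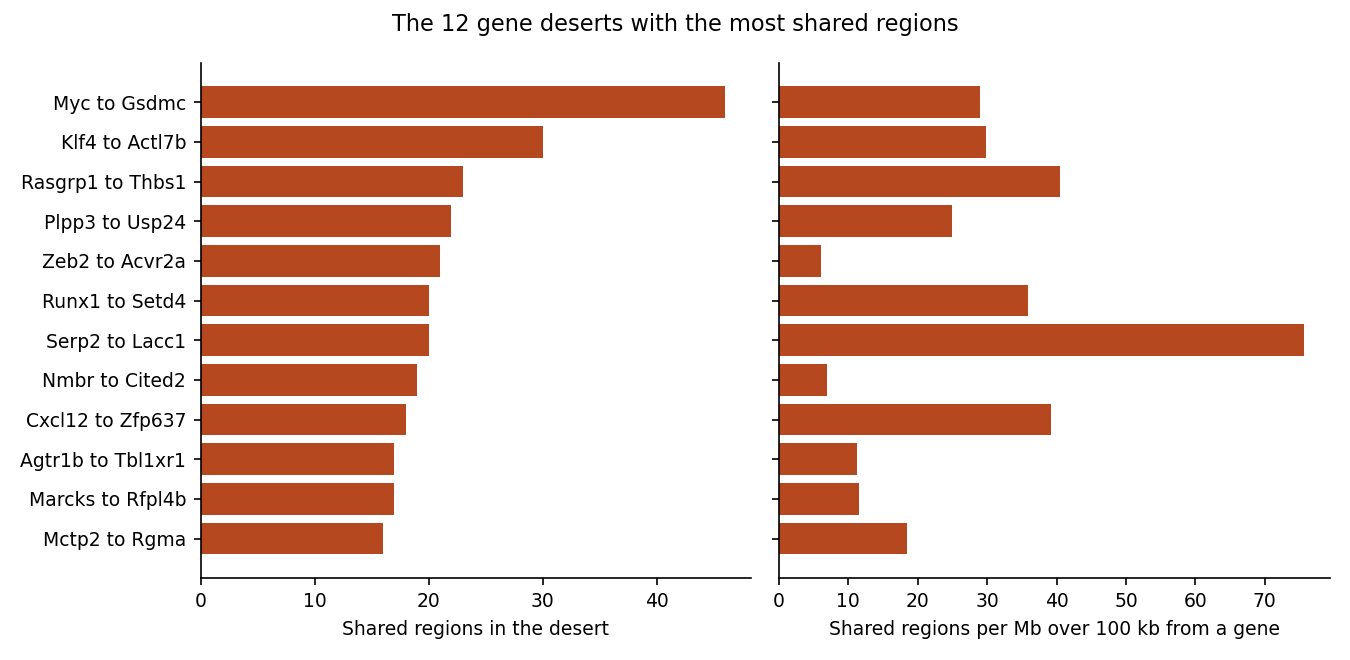
Number of shared desert regions (left) and number per Mb of sequence over 100 kb from a protein-coding gene (right) in the 12 deserts with the most, each named by its flanking genes. The counts run between 16 and 46. The density runs between 6.01 per Mb at Zeb2 and 75.6 per Mb at Serp2.

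Regions within deserts tended to stand in groups. With members chained where the next lay at most 50 kb away, 1148 of 2125 (54.0%) fell in 233 clusters of 3 or more, and 605 (28.5%) stood alone. Of the other shared regions, which are denser, 78.2% fell in such clusters. The median gap to the next shared desert region was 43.2 kb, with quartiles of 12.7 and 392 kb, against 22.5 kb for the others. The largest cluster held 24 regions over 383 kb, at 128 to 510 kb from Myc. Next were the 20 regions between Serp2 and Lacc1, 15 between Klf14 and Mkln1 over 223 kb, and 14 between Cxcl12 and Zfp637 over 222 kb. Clusters of 13 stood between Haao and Zfp36l2, between Runx1 and Setd4, and between Ndfip2 and Spry2, an inhibitor of receptor tyrosine kinase signalling.

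A nearest gene is a neighbour and is not shown to be a target. The 2125 regions had 737 nearest protein-coding genes, 418 of which were nearest to more than 1. Myc led with 35. Then came Klf6, a Krüppel-like transcription factor, with 20, Zeb2 with 19, Actl7b and the p300-binding coactivator Cited2 with 17 each, and Marcks, an actin-binding substrate of protein kinase C, and Tbl1xr1 with 16 each. Serp2 and the pseudokinase gene Trib2 had 15, Gsdmc and Mctp2 14, and Cxcl12, Klf4 and Usp24 13. Atp2b1, the calcium pump of the plasma membrane, had 12. The median fold of a gene's regions in 1 library lay between 6.07 (Mctp2) and 10.4 (Zeb2) over these 15 genes.

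Among 71 developmental transcription factor genes, 58 flank a desert and 38 of these (65.5%) were nearest to at least 1 shared desert region. Of all 2811 protein-coding genes that flank a desert, 737 (26.2%) were. The 38 genes had a median of 3 regions each, against 2 over all 737. Of the 38 genes, 14 (36.8%) had 5 or more, against 17.9% of all 737. Besides Myc, Zeb2 and Klf4 these included Runx1 (12 regions), Sox9, a factor of cartilage formation (9), Osr1 (9), Tbx18, a T-box factor of epicardium and vessel mural cells (9), Gata6, which vascular smooth muscle expresses (8), Id2 (8), Sox5 (6), and Foxf1, Foxp1 and Nfib (5 each). The 79 deserts beside genes of the list held 6.84 shared desert regions per Mb, against 2.71 over all 1689 deserts. Their median desert sequence was 461 kb, against 219 kb, and the part of desert length in these shares was not tested.

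Of 57 matrix and adhesion genes, 36 flank a desert and 22 (61.1%) were nearest to a region, with a median of 1.5 each. Thbs1 had 12, the hyaluronan synthase Has2 9, Flrt2 6 and the protocadherin Pcdh18 5. Their 48 deserts were long (median 937 kb) and held 1.61 regions per Mb, below the 2.71 of all deserts. Of 61 signalling ligands and antagonists, 36 flank a desert and 20 (55.6%) were nearest to a region, also with a median of 1.5. Cxcl12 had 13, the fibroblast growth factor Fgf9 6, and Tgfb2, a TGF-beta ligand, and the angiogenic ligand Vegfa 5 each. Their 44 deserts were short (median 198 kb) and held 7.03 regions per Mb. The share of nearest genes with 5 or more regions was 18.2% for matrix and adhesion genes and 20% for ligands and antagonists, near the 17.9% of all nearest genes. The lists were drawn up with earlier results of these data known, and no test of a list was made.

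A desert of protein-coding genes need not be empty of transcripts. A non-coding gene or pseudogene overlapped 492 of the shared desert regions (23.2%), and 477 of these overlapped an lncRNA. Pvt1 held 10, Gm31813 9, Mir100hg 8, and Gm13986, Gm20125, Lncpint and Morrbid 7 each. In Morrbid the folds of a region in 1 library were 4.23 to 7.56, low beside the median over all desert regions. Lncpint, a p53-induced lncRNA, had 3.26 to 10.1. Gm12610, which held 5, had the highest median fold of the 10 with the most in each library, with medians over its regions of 11.2, 12.5 and 11.4 in the siRNA-labelled and 11.5, 12.6 and 11.03 in the NC-labelled libraries. Of its regions 4 lay 116 to 168 kb from Cdkn2b, a cell cycle inhibitor gene. The one at chr4:89478589-89479274 had folds of 16.1, 15.1 and 17.4, against 14.5, 15.0 and 14.8. These 3 siRNA-labelled values lay above all 3 NC-labelled values, but the scaled summit fragments, 98.3, 68.6 and 89.5, against 75.7, 78.4 and 83.1, overlapped, and the region did not pass the test of single regions below. Gm12610 was singled out after its values were seen.

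The highest-ranked shared desert regions fell into distinct kinds. Ranked by the lowest within-list percentile of −log10 q, the first (chr17:39843155-39846692, 104 kb from Esp38) reached to 3538 bp and overlapped Rn18s-rs5, a pseudogene annotated from ribosomal RNA. Its fold was only 3.68, 3.49 and 3.29 in the siRNA-labelled and 3.27, 3.15 and 3.37 in the NC-labelled libraries, over a local background of 362 fragments on average. The second (chr3:5860346-5860819, 282 kb from Pex2) was the opposite, with folds of 29.4, 30.6 and 30.3, against 30.1, 30.2 and 30.5, widths of 466 to 474 bp, and summits within 3 bp in all libraries. These 2 were also the only desert regions whose fragments could not be solved in every library, and they do not enter the test of single regions. Whether repeats or multiply mapped reads lie under them was not tested.

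The other highest-ranked regions were widely spread. Beside the Myc and Klf4 regions above, they lay 116 kb from 1600014C23Rik (chr17:45850494-45852905, folds of 11.2 to 13.1), 174 kb from Uaca (chr9:61054315-61055150, 16.3 to 20.5) and 417 kb from Isl1, a homeobox factor of the heart field (chr13:115880527-115881082, 21.2 to 26.1). Further ones lay 343 kb from Mn1 (chr5:111799579-111800538, 15.5 to 18.5), 188 kb from the cyclin-dependent kinase gene Cdk6 (chr5:3151958-3152681, 18.8 to 22.5), 313 kb from the aggrecanase gene Adamts9 (chr6:93257010-93257967, 15.2 to 18.6) and 136 kb from Gata6 (chr18:11221801-11222683, 15.9 to 19.2). At Uaca all 6 summits fell on 1 base, and at Cdk6 and Gata6 within 8 and 6 bp, while at Adamts9 they spread over 100 bp. At each of these 7 regions the folds of the groups overlapped.

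The design also asks whether shared desert regions differed between the siRNA-labelled and NC-labelled libraries. Their median width and median −log10 q were lower in each siRNA-labelled library than in any NC-labelled library, as was the background coverage, whose part was not tested. The median desert peak width was 490 ± 12.9 bp in siRNA-labelled and 563 ± 7.51 bp in NC-labelled libraries (SD, n = 3 each). The median −log10 q was 11.4 ± 0.953 and 13.6 ± 0.804. In both the groups did not overlap (two-sided exact permutation p = 0.1, the smallest that 3 against 3 libraries allow, adjusted p = 0.24 over 12 measures). The other shared regions also had groups that did not overlap in median width (558, 537 and 574 bp, against 644, 639 and 628 bp) and in median −log10 q (11.98, 14.3 and 15.2, against 16.1, 17.4 and 15.5). The ratio of desert to other width was 0.880 ± 0.00960 in siRNA-labelled and 0.883 ± 0.00205 in NC-labelled libraries (SD, n = 3 each, exact permutation p = 0.9). The median desert fold, 7.45 ± 0.314 in siRNA-labelled and 7.70 ± 0.114 in NC-labelled libraries, overlapped (exact permutation p = 0.4). In bulk libraries, a weaker signal in every cell and a signal in fewer cells cannot be told apart.

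Relative to the other shared regions of the same library, the excess of desert regions in fold was smaller in each siRNA-labelled than in any NC-labelled library. The ratio was 1.02, 1.01 and 1.01 in siRNA-labelled libraries 1 to 3 and 1.05, 1.04 and 1.04 in NC-labelled libraries 1 to 3, or 1.01 ± 0.0101 and 1.04 ± 0.00631 (SD, n = 3 each). The groups did not overlap, with an exact permutation p of 0.1, again the smallest possible, and an adjusted p of 0.24. The parts of coverage and of the 1 added to both terms of the fold in this difference were not tested. The desert share of all peaks was 7.80%, 7.72% and 7.94% in siRNA-labelled libraries, against 7.83%, 7.76% and 8.30% in NC-labelled libraries. Those shares overlapped between the groups (exact permutation p = 0.6), and their difference of −0.145 points turned to 0.0233 without NC-labelled library 3. When only peaks whose −log10 q reached 5 were kept, the difference was −0.474 points, with an exact permutation p of 0.1, the smallest possible.

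Single regions were tested on the summit fragments, scaled so that the median over all shared regions was equal between libraries. limma, fitted on log2(scaled fragments + 0.5) over 29572 shared regions, called 0 of 2123 desert regions at an adjusted p of 0.05, and 0% of all shared regions in either direction. At an unadjusted p under 0.05, 117 desert regions were higher in the siRNA-labelled libraries (5.51%, against 4.9% of all shared regions) and 154 lower (7.25%, against 4.87%). All 3 siRNA-labelled values lay above all 3 NC-labelled values at 135 desert regions (6.36%, against 7.77% of all shared regions) and below them at 189 (8.90%, against 7.73%). The median log2 difference, siRNA-labelled over NC-labelled, was −0.03 over the desert regions and 0.00 over all, and without siRNA-labelled library 3 it was 0.00 in deserts and 0.01 over all. Scaling by background coverage in place of the median moved the median of all shared regions by 0.10, to 0.07 in deserts, and turned the split at an unadjusted p under 0.05 to 212 higher (9.99%) and 80 lower (3.77%) desert regions. Over all shared regions that scaling gave 2837 higher (9.59%) and 602 lower (2.04%). The direction of the set is therefore given only relative to the other shared regions.

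**Figure D5:**
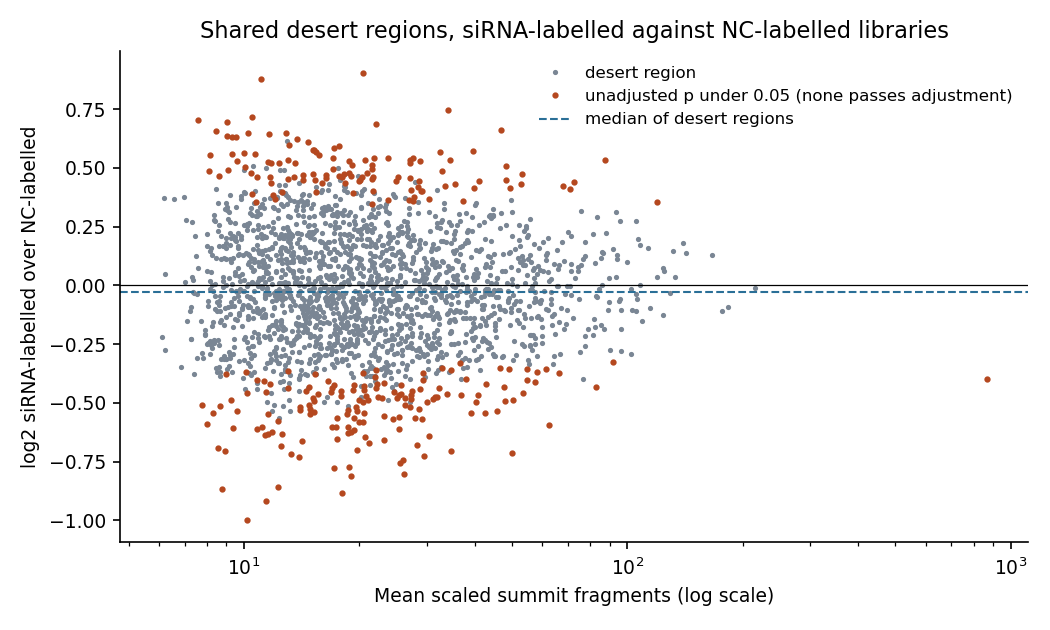
Log2 difference in scaled summit fragments, siRNA-labelled over NC-labelled libraries, against the mean scaled summit fragments (log axis) of each of 2123 shared desert regions. Regions with an unadjusted limma p under 0.05 are marked, and none passed adjustment. The dashed line is the desert median, −0.03.

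The regions with the smallest p-values are given as values, since none passed adjustment. At chr3:120416227-120417036, 632 kb from Ptbp2, a splicing regulator, the scaled summit fragments were 12.4, 11.98 and 13.1 in siRNA-labelled libraries 1 to 3 and 23.4, 22.7 and 24.3 in NC-labelled libraries 1 to 3. The limma log2 difference was −0.88 with a standard error of 0.15 (adjusted p = 0.315). At chr17:16218579-16219113, 387 kb from the BMP coreceptor gene Rgmb, they were 7.47, 8.71 and 7.04, against 14.4, 14.8 and 15.9. The groups did not overlap at either. At chr15:5462236-5463092, 218 kb from Ptger4, a prostaglandin E receptor gene, they were 13.7, 14.2 and 13.1, against 23.4, 25.3 and 24.3. Near Foxq1 (chr13:31346982-31347613) they were 19.9, 19.6 and 17.1, against 33.4, 29.6 and 33.6, and near Pgrmc2 (chr3:41284766-41285662) 28.6, 24.0 and 26.1, against 45.1, 41.0 and 42.9. The sixth, near Akr1e1, had 9.96, 8.71 and 7.04, against 13.5, 18.3 and 15.9. Their adjusted p-values in limma were 0.315 to 0.338.

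In the other direction, a region 324 kb from Cdh9, a cadherin gene (chr15:16403980-16404534), had scaled summit fragments of 42.3, 47.9 and 38.2 in siRNA-labelled libraries, against 24.3, 23.5 and 28.0 in NC-labelled libraries. The groups did not overlap there. The limma log2 difference was 0.75 with a standard error of 0.16 (adjusted p = 0.338). Near Efnb2, an ephrin ligand gene of arteries (chr8:8487817-8489236), they were 31.1, 25.1 and 26.1, against 15.3, 18.3 and 16.8. Near Tnfrsf11b, the gene of the decoy receptor osteoprotegerin (chr15:54114136-54114628), they were 14.9, 14.2 and 14.1, against 9.92, 7.84 and 5.60. The regions near Pard3 and near Hes1, a Notch target gene, had limma log2 differences of 0.70 and 0.72. Most of these summits hold fewer than 50 fragments, where counting error is large.

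Whole deserts were also set side by side. Summed over its 21 regions, the Zeb2 desert had 581, 538 and 549 scaled summit fragments in siRNA-labelled libraries 1 to 3 and 692, 657 and 615 in NC-labelled libraries 1 to 3, and 17 of its regions were lower in the siRNA-labelled libraries by the fitted log2 difference. By the same difference 54.2% of all desert regions and 49.9% of all shared regions were lower, and regions of a desert are not replicates. None of the 21 passed adjustment (smallest limma adjusted p = 0.375). Scaled by background coverage, the sums were 561, 585 and 579, against 654, 639 and 605, still without overlap. The Mctp2 desert (362, 349 and 310, against 372, 383 and 373) also had groups that did not overlap, but they did overlap with background scaling. In the other 10 of the 12 deserts the sums overlapped. With background scaling 4 of the 12 had groups that did not overlap, and besides Zeb2 these were higher in the siRNA-labelled libraries: Runx1 (628, 690 and 624, against 574, 601 and 615), Cxcl12 (543, 612 and 569, against 519, 515 and 524) and Marcks (460, 479 and 442, against 403, 396 and 402). That scaling put the median log2 difference of all shared regions at 0.10, with 33.7% of them lower, so higher sums are not particular to these deserts. Sums over the remaining deserts were not made. In the Myc desert the sums scaled to an equal median were 1579, 1533 and 1451, against 1567, 1565 and 1598. The Zeb2 desert was singled out after its values were seen, and no test of a sum was made.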

How the data were processed

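The 6 lists are narrowPeak files, 1 per library. Per the submitters' processing notes, Bowtie2, Picard and MACS2 were used with mm10. The sources used here give neither versions nor settings. For each peak the authors deposited an interval, a summit, a score, a fold (the ratio of the summit to its library's local background), a p-value and a q-value, both as −log10. The score was not used.

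Gene positions came from the RefSeq table of GRCm38.p6 (21887 protein-coding genes on 21 chromosomes). Where a region held several peaks of a library, the one with the highest −log10 q was taken. Summit fragments and local background were solved from the deposited fold and p-value with a pseudocount of 1 and a relative tolerance of 0.002, which recovered 99.96% of 2836 simulated summits. Within-library differences were tested by sign flips (64 assignments) and groups by exact permutation (20 assignments), both two-sided. Single regions were tested with limma 3.58.1 in R 4.3.3, pseudocount 0.5, with Benjamini-Hochberg adjustment over 29572 shared regions. On data simulated for that comparison, limma recovered 90.5% of 4-fold and 36.5% of 2-fold changes, with 6 false calls. The changes were placed only in shared regions above a minimum mean count, and only counting error was simulated. Other steps used Python 3.11.15. The 30 shared regions with unsolved fragments in some library, 2 of them in deserts, were left out of limma.

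The members and the gene lists (189 genes in 3 lists) were chosen with earlier results of these data known. Regions were named by rule: the 12 highest by the lowest within-list percentile of −log10 q, the 6 of smallest p in each direction, the 3 on each side of 100 kb and the 3 farthest from genes; also the 12 fullest deserts, the 15 commonest nearest genes, list genes nearest to 5 or more regions, and the non-coding genes holding the most. A region and a list gene that these rules name are not reported here. Alternatives varied the distance, gene set, threshold, merging, scaling, pseudocount and libraries. The genome sequence of mm10 was not used, so only RefSeq windows are printed. Intervals and fragment numbers cover counting error only.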

Additional observations from a re-analysis of the deposited data

Results flagged for a closer look

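The ratio of desert to other peak width stood apart in 1 library. It was 0.887, 0.885 and 0.869 in siRNA-labelled libraries 1 to 3 and 0.885, 0.881 and 0.884 in NC-labelled libraries 1 to 3. The gap between the lowest, siRNA-labelled library 3, and its nearest neighbour was 0.66 of the whole range, above Dixon's 95% critical value for 6 libraries. Chance gives about 1 such value in 20 groups. The same check was made on the desert to other comparisons of fold and percentile, where no library stood apart. With several comparisons checked, 1 such value among them is likelier by chance. The cause was not tested.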

How the results depend on the processing

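Alternative settings gave 115 values. Of these, 80 kept direction and side of the threshold or stayed within their spread, 13 moved, 21 lost the threshold and 1 turned. The number of shared desert regions was 3569 beyond 50 kb, 961 beyond 200 kb, 159 beyond 500 kb and 265 with every gene of the table, non-coding ones included, and 2174 to 2298 with a library left out. The share of desert union regions with a peak in all libraries was 36.6% with peaks of −log10 q of at least 5 and 34.2 to 35.9% with a library left out. Clusters of 3 or more held 35.3% with gaps of 25 kb and 66.3% with gaps of 100 kb. With siRNA-labelled libraries 2 and 3 counted as 1, the desert to other comparisons were 1.03 for fold, −6.00 points for percentile and 0.883 for width, and with a library left out they ran from 1.02 to 1.03, from −6.41 to −6.11 and from 0.880 to 0.884. Each then had an exact permutation p of 0.0625, the smallest that 5 libraries allow, so the loss of the threshold comes from their number. The siRNA-labelled minus NC-labelled difference in the desert share of peaks, −0.145 points, was 0.0233 points without NC-labelled library 3 (the cause was not tested), −0.248 to 0.0233 over all libraries left out, and −0.474 points with peaks of −log10 q of at least 5. With a library left out, the group differences in the log2 of the desert to other fold ratio and in desert width ran from −0.05 to −0.03 and from −79.7 to −66.3 bp. Samples of the same replicate number did not deviate together (correlations of 0.0405, 0.0321 and −0.0215). As a replicate block the differences stayed at −0.04, −73 bp and −0.145 points with an exact permutation p of 0.25 each, and limma called 0 regions. limma called 0 desert regions under every setting, and its desert median was 0.00 without siRNA-labelled library 3. At an unadjusted limma p under 0.05 there were 212 to 314 desert regions. With log2 of the deposited fold (212), 3.06% were higher and 6.92% lower, against 4.29% and 3.86% of all shared regions. Without siRNA-labelled library 1 (314), 4.33% were higher and 10.5% lower, against 4.85% and 6.35%. With a mean of at least 15 fragments only 1431 desert regions were tested. Without chromosomes X and Y, chosen after seeing the data, 2081 regions were left. A median desert summit held 16 to 23 fragments, and 36.5% of simulated 2-fold changes were recovered, so changes of that size could be missed. That simulation left the regions of lowest count unchanged and had no spread beyond counting error, so recovery in the real data may be lower.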
